A study of Mus musculus with 6 samples.

Results

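The collagen genes of the mouse mammary gland were followed through the progression of the C3(1)-Tag model, in which the SV40 large T antigen is made in the mammary epithelium under the C3(1) promoter and tumors arise after a carcinoma in situ stage. The set was chosen by symbol alone, as every gene named Col, a number, a and a number, and held 44 of the 31055 genes in the count tables. Single-cell RNA sequencing was done on 6 libraries from female C3TAG mice: 2 of Prepuberty, whole mammary glands at 5 weeks of age, 2 of DCIS, whole glands at 14 weeks that contained ductal carcinoma in situ, and 2 of Tumor, palpable mammary tumors from mice over 18 weeks old. All 3 groups therefore carry the transgene, the series has no transgene-free gland, age and disease state cannot be told apart, and the Tumor libraries are of tumors while the others are of whole glands. The labels do not tie each library to an animal of its own, so every p-value below measures the spread between 2 libraries per state, which may be technical.

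Collagens are secreted or membrane-bound proteins whose chains wind into a helix with glycine at every turn, and they fall into families by the structures they build. Fibrillar collagens (types I, III, V, XI and others) form the tension-bearing fibers of connective tissue, FACIT collagens (types IX, XII, XIV and XVI) sit on fiber surfaces, and type VI collagen forms beaded filaments. Type IV collagen is the sheet of the basement membrane, the multiplexins (types XV and XVIII) lie in and beside that membrane, type VII anchors it to the stroma beneath, and types XIII, XVII, XXIII and XXV span the cell membrane. In the mammary gland, ducts of luminal epithelium are wrapped in contractile myoepithelium and a basement membrane, and the fibroblasts of the surrounding stroma are the usual source of its fibrillar collagen.

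Counts are given as unique molecular identifiers (UMIs), each one a captured RNA molecule read from its 3' end. After removal of cells with few genes, a high mitochondrial share or a doublet call, 21537 of 23835 cells and 237076023 UMIs remained, with 28564804 to 57189896 UMIs per library and a median of 6568 to 13620 UMIs per cell. All 44 collagens had at least 1 UMI, 34 had at least 100 and are described one by one, and the 445320 collagen UMIs were 0.188% of all UMIs. The other 10 (Col4a3, Col6a4, Col6a5, Col6a6, Col10a1, Col19a1, Col20a1, Col22a1, Col26a1 and Col28a1) were each too sparse for a statement about their source. The fibrillar group held 271206 of the collagen UMIs over its 11 genes, basement membrane type IV 64391, type VI 45193, FACIT 31292, multiplexins 18955, the short chain type VIII and X genes 9643, transmembrane collagens 3003 and type VII 1519. Pairs of libraries shared 7 to 32 cell barcodes.

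Cells were clustered after integration of the libraries with the collagens left out of the genes used, and a cluster took a cell class name only from markers that include no collagen. The classes were epithelial-like (7402 cells), fibroblast-like (6240), endothelial-like (2278), macrophage-like (1193), myoepithelial-like (1047), T-cell-like (471), pericyte- or smooth-muscle-like (433) and Schwann-like (363), and 2110 cells in 5 clusters were left unnamed. The Tumor libraries went against their class names in part. In Tumor 1 and Tumor 2 respectively, 30.8% and 45.3% of the 253 and 289 fibroblast-like cells held a T antigen UMI, against at most 0.6% in the other 4 libraries. Their summed level of 8 epithelial markers was 530 and 166 CPM (a gene's UMIs after the UMIs of the class in a library are scaled to a fixed total), against 16.4 to 81.1, that of 8 myoepithelial markers was 2037 and 480 CPM, against 25.9 to 75, and that of 8 fibroblast markers was 4846 and 4129 CPM, against 6098 to 9886. When the same cells were clustered without integration, 175 and 40 Tumor cells were fibroblast-like, their fibroblast markers were at 7694 and 12348 CPM, and 16% and 2.5% of them held a T antigen UMI. The 22 and 42 Tumor cells called myoepithelial-like all fell into epithelial-like or unnamed clusters without integration, and 45.5% and 40.5% held a T antigen UMI. Both clusterings are therefore given for the fibroblast-like cells. Fits without the cells that held a T antigen UMI were also run. Where none of their values is stated, no statement is made on the part of such cells in a difference.

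In GRCm38 the type IV genes Col4a1 (chromosome 8, 11198423 to 11312826, minus strand) and Col4a2 (11312805 to 11449287, plus strand) stand head to head with overlapping ends, so that their 3' ends, where the UMIs are read, point away from each other, and the annotated starts of Col4a6 (141474076, minus strand) and Col4a5 (141475385, plus strand) lie close together on the X chromosome. Col3a1 (chromosome 1, 45311538 to 45349706, plus strand) is followed on the other strand by Col5a2 (45374321 to 45503282). Promoter windows of 250 bases before the RefSeq gene start (GRCm38.p6) were found for 35 of the 44 collagens, as 38 windows. A GGGCGG box on either strand was in 57.9% of the collagen windows against 32.7% of all 32851 windows, CCAAT in 34.2% against 33.8%, TATAAA in 13.2% against 12.4%, and TGANTCA in 2.63% against 6.75%. The windows of a chain of type I collagen and of type III collagen, which were highest in fibroblast-like cells, and of a multiplexin and a transmembrane collagen, which were highest in endothelial-like cells, are shown 5′ to 3′ with these motifs in capitals. The Col1a2 window lies at chr6:4505368-4505617 on the plus strand, Col3a1 at chr1:45311288-45311537 on the plus strand, Col15a1 at chr4:47207762-47208011 on the plus strand and Col13a1 at chr10:61979109-61979358 on the minus strand.
Col1a2: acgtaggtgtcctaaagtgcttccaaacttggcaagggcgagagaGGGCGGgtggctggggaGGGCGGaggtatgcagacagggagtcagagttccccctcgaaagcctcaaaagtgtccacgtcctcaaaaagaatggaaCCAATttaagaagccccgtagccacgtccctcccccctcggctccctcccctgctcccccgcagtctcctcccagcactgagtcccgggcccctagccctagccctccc
Col3a1: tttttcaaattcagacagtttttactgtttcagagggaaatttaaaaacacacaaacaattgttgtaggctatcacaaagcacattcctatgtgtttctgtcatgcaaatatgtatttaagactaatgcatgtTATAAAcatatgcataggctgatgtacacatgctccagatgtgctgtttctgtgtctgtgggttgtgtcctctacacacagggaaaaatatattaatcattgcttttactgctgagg
Col15a1: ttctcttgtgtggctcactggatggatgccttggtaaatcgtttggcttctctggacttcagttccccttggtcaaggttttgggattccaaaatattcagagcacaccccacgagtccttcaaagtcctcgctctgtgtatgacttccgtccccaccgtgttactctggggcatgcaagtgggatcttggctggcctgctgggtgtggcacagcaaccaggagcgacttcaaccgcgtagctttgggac
Col13a1: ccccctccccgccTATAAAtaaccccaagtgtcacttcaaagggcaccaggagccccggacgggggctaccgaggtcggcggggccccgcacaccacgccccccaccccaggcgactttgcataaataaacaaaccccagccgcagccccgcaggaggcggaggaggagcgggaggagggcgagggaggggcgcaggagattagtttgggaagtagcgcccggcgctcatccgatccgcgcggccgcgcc
The Col1a2 window held a CCAAT box and a pair of GGGCGG boxes, Col3a1 and Col13a1 each held a TATAAA box, 117 and 237 bases before the start at its far end, and the Col15a1 window held none of the 4 motifs. These matches are letters only and were not tested as sites.

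The fibroblast-like cells held most of the UMIs of nearly every abundant fibrillar and beaded filament collagen. Levels below are the mean CPM over libraries ± SD, and they describe the classes with no test, since the same cells gave the clusters. Col1a1 and Col1a2, the chains of type I collagen, were at 1640 ± 2379 and 1902 ± 2031 CPM in fibroblast-like cells (n = 6 libraries), with 95.1% and 91.9% of their UMIs there. Col3a1 was at 2197 ± 2226 CPM with 94.6% of its UMIs there, and the type V chains Col5a1 and Col5a2, which nucleate fibers, at 142 ± 182 and 385 ± 328 CPM with 85.9% and 91.7%. Tumor 1 stood far above the rest, with Col1a1 at 6427 CPM in Tumor 1 and at 145 to 1112 CPM in the other 5. The pericyte- or smooth-muscle-like cells came next for each of these 5 genes.

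Chains of types VI, XII and XIV were also highest in stromal classes. Col6a1 and Col6a2 were highest in fibroblast-like cells, at 340 ± 190 and 178 ± 82.9 CPM with 78.5% and 85.4% of their UMIs there. Col6a3 was highest in pericyte- or smooth-muscle-like cells, at 295 ± 334 CPM over 5 libraries, although the fibroblast-like cells held 73.6% of its UMIs, and its 23 cells in Tumor 1 were at 891 CPM against 111 to 170 CPM in the other 4 libraries. The FACIT chains Col12a1 and Col14a1 were at 169 ± 253 and 88.5 ± 99.0 CPM in fibroblast-like cells, with 60.6% and 81.9% of their UMIs. For Col12a1 that rank rests on Tumor, where Schwann-like cells were too few: in the 4 libraries with both classes Schwann-like cells were at 43.2 to 131 CPM, and fibroblast-like cells were above them in 1. The short chain genes Col8a1 and Col8a2, at 170 ± 299 and 10.1 ± 15.9 CPM with 44.3% and 36.1% of their UMIs, and the sparse fibrillar Col24a1, at 3.86 ± 5.09 CPM with 85.5% of its UMIs, were highest there as well. Fibroblast-like cells were the highest class in 3 of the 6 libraries for each of Col8a1 and Col8a2, and Col8a1 was at 6.19 to 10.2 CPM there in Prepuberty 1, Prepuberty 2 and DCIS 2, against 22.2 to 46.2 in endothelial-like cells of those libraries. As a measure of free RNA in the droplets, Col3a1 was at 0 to 20.9 CPM in T-cell-like cells, which make no fiber collagen, at 2.13 to 80.3 CPM in macrophage-like cells and at 3.69 to 123 CPM in endothelial-like cells, against 320 to 6342 CPM in fibroblast-like cells. For the sparse genes these ranges overlapped: Col24a1 was at 0 to 2.32 CPM in macrophage-like and 0.182 to 13.4 CPM in fibroblast-like cells, and Col8a2 at 0 to 1.37 and 0.0607 to 41.3 CPM.

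Col4a1, Col4a2, both multiplexins and Col13a1 were highest in endothelial-like cells. Col4a1 and Col4a2, the common pair of type IV chains, were at 1000 ± 793 and 1008 ± 791 CPM there, and next highest in pericyte- or smooth-muscle-like cells. Because fibroblast-like cells were more numerous, they held 47.0% of the Col4a1 UMIs at a mean of 188 CPM, against 39.2% from endothelial-like cells. The multiplexin Col15a1 was at 155 ± 76.0 CPM in endothelial-like cells, and Col18a1, whose end fragment is endostatin, at 270 ± 289. The rank of Col18a1 rests on Tumor: endothelial-like cells were highest in 2 of the 6 libraries and above pericyte- or smooth-muscle-like cells in 2 of the 5 shared, and the latter were the top class without integration. Col13a1, a transmembrane collagen of cell contacts, had 73.2% of its UMIs in endothelial-like cells at 81.1 ± 106 CPM.

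The myoepithelial-like cells were highest for 12 of the 34 collagens, among them the chains at the face between epithelium and stroma. Col17a1, the hemidesmosome collagen, was at 74.7 ± 31.1 CPM (37.7 to 130 over the 6 libraries) against 0.228 to 18.5 in epithelial-like cells. Col4a5 was at 30.2 to 66.8 CPM against 13.3 to 26.4, and Col9a2, a chain of the FACIT type IX collagen, at 28.3 to 80.3 against 0.463 to 24.3. In each of these 3 genes the myoepithelial-like libraries did not overlap the epithelial-like ones. Col7a1, the anchoring fibril collagen, was at 19.4 ± 10.8 CPM, Col16a1 at 92.3 ± 30.1, Col9a3 at 153 ± 97.4 and Col4a6 at 35.1 ± 13.1. Col9a1 was at 13.5 ± 12.4. Col11a1 (93.4 ± 177 CPM), Col11a2 (6.43 ± 13.3), Col2a1 (5.62 ± 13.6) and Col25a1 (2.65 ± 3.54) had their highest mean there too, but the class was highest in only 4, 2, 2 and 3 of the 6 libraries. Their highest values in the class, 452, 33.5, 33.5 and 9.56 CPM, were all in Tumor 2. Its 42 cells of the class held T antigen in 40.5% and fell into an unnamed cluster without integration. The top class of these genes changed when the cells were clustered without integration.

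Schwann-like cells, the glia of peripheral nerves, were highest for the transmembrane Col23a1, at 27.6 to 85.4 CPM in the 4 libraries with enough cells, against at most 19.5 CPM in any fibroblast-like library. Of the 34 collagens, 12 were highest in fibroblast-like, 12 in myoepithelial-like and 5 in endothelial-like cells, and 26 had the same top class without integration among the named classes. The other 8 were Col2a1, Col4a4, Col6a3, Col11a1, Col11a2, Col18a1, Col25a1 and Col27a1. Only Col9a2, Col4a5, Col17a1 and Col23a1 had libraries in the top class that did not overlap the second class. Col4a4 (16.1 ± 25.3 CPM), Col27a1 (32.6 ± 31.3 over 5 libraries) and Col5a3 (150 ± 94.6 over 3 libraries) were highest in unnamed clusters, Col5a3 at nearly the mean of the fibroblast-like cells, 144 CPM.

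**Figure D1:**
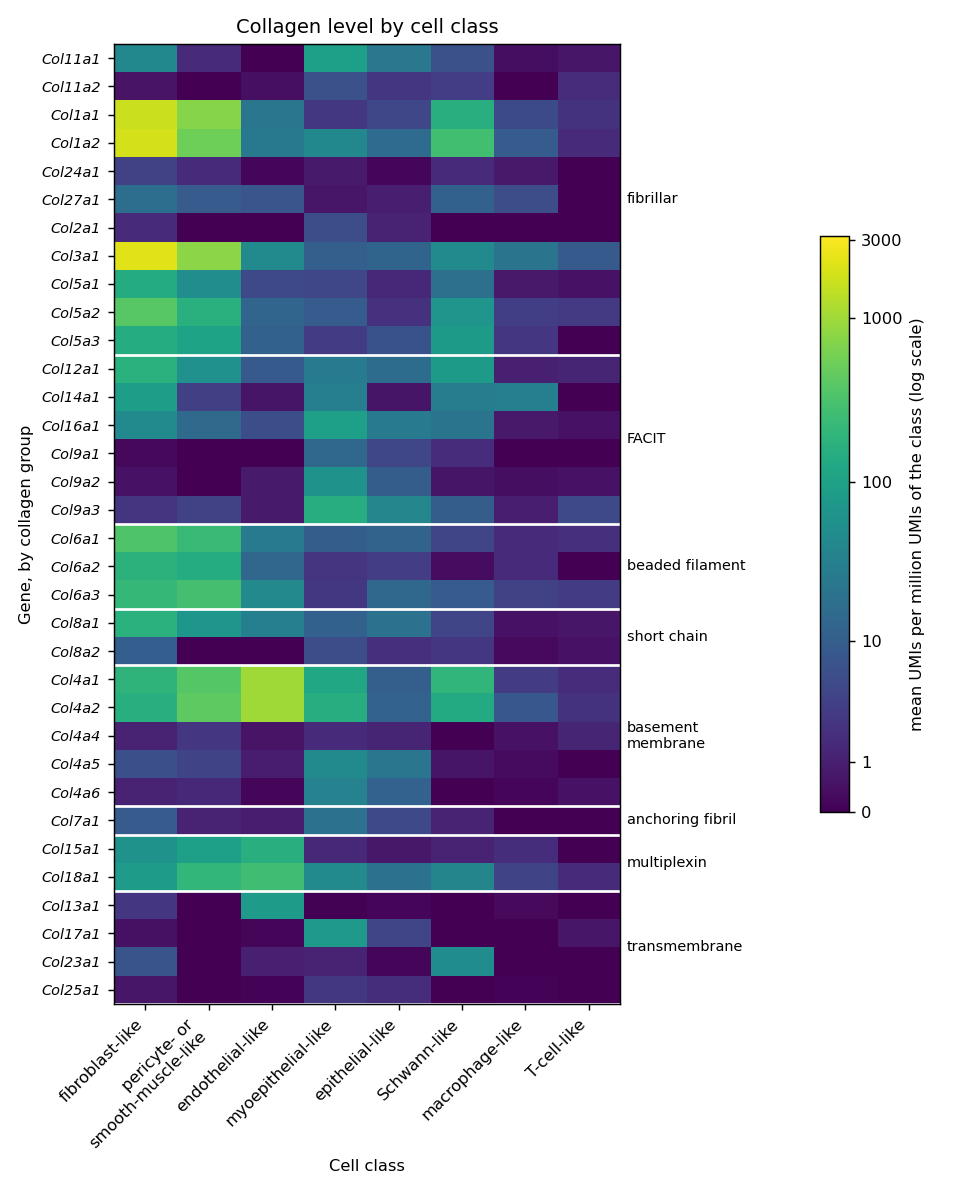
Mean level of the 34 collagens with at least 100 UMIs (rows, by collagen group) in 8 cell classes (columns), as CPM of the class averaged over libraries and drawn on a log color scale. Fibrillar collagens other than Col2a1, Col11a1 and Col11a2 are brightest in the fibroblast-like column, with Col3a1 at 2197; Col4a1 and Col4a2 are brightest in the endothelial-like column at 1000 and 1008, and Col17a1 in the myoepithelial-like column at 74.7.

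The next question was how the levels differ between disease states within a class. UMIs were summed per library and class, and all genes were fitted together with edgeR's quasi-likelihood F test on TMM-scaled counts, with p-values adjusted over all genes tested (Benjamini-Hochberg). Values are TMM-scaled CPM in the order Prepuberty 1, Prepuberty 2, DCIS 1, DCIS 2, Tumor 1 and Tumor 2, and changes are log2 differences ± SE. The 3 comparisons share libraries, so that their values are not independent of each other. Counts of collagens at an unadjusted p or by DESeq2 come without the share of all genes under the same rule unless it is stated. They are therefore not read as results about the collagens.

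In fibroblast-like cells, 7 of the 29 collagens tested rose from Prepuberty to Tumor and 1 fell (9.36% of all genes were called, 6.55% as higher and 2.81% as lower). The 7 were Col7a1, Col8a1, Col8a2, Col9a3, Col11a1, Col12a1 and Col16a1, of the FACIT, short chain, anchoring and fibrillar groups. The chains of types I and III, with Col5a1 and Col5a2, were not called in this fit. They were called as higher with the block described below, whose pairing was taken from these data and not from the labels. From DCIS to Tumor, 1 rose (Col9a3) and 1 fell (Col4a1), where 14% of all genes were called, 8.25% as higher and 5.79% as lower. From Prepuberty to DCIS, 0 of 29 were called by edgeR, where 0% of all genes were called. At an unadjusted p under 0.05 there were 7, and DESeq2 called 1, each without an all-gene share. The median change of the 29 collagens was 0.75, 0.90 and 1.62 from Prepuberty to DCIS, DCIS to Tumor and Prepuberty to Tumor, beside −0.04, 0.13 and 0.02 over all genes.

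Col12a1, the FACIT chain of tissues under tension, was at 15.2, 5.60, 193, 44.1, 591 and 90.7 CPM. Both DCIS and both Tumor libraries were above both Prepuberty libraries, while DCIS and Tumor overlapped. It rose by 5.03 ± 1.12 from Prepuberty to Tumor (adjusted p = 0.0346) and was 3.5 ± 1.05 higher in DCIS than in Prepuberty, which did not pass (adjusted p = 0.478).

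Col8a1, a short chain collagen of vessel walls and remodeling matrix, was at 11.2, 6.35, 128, 12, 682 and 78.0 CPM, a rise of 5.43 ± 1.37 (adjusted p = 0.0484), with its DCIS and Tumor libraries overlapping. Its partner Col8a2 was at 0.503, 0.0622, 9.83, 0.783, 36.4 and 6.73 CPM and rose by 6.11 ± 1.43 (adjusted p = 0.0397). For both genes Tumor 1 was several times above Tumor 2. Col16a1, which bridges fibers and other matrix, was at 22.2, 10.1, 53.2, 25.4, 79.1 and 63.5 CPM and rose by 2.14 ± 0.51 (adjusted p = 0.0424), with the Tumor libraries above the other 4. Col7a1 was at 3.17, 1.18, 5.62, 9.0, 11.9 and 17.7 CPM, a rise without overlap of 2.76 ± 0.58 (adjusted p = 0.0289).

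Col11a1, a minor fibrillar chain of cartilage and tumor stroma, was at 0.352, 0, 17.1, 0.783, 28.8 and 135 CPM and rose by 8.67 ± 1.72 from Prepuberty (adjusted p = 0.0245). Col9a3 was at 0.234 to 0.352 CPM in the first 4 libraries and at 5.09 and 5.41 in Tumor, a rise of 4.06 ± 0.66 from Prepuberty (adjusted p = 0.0141). Against DCIS the rise was 4.32 ± 0.75 (adjusted p = 0.0147), but DCIS held only 3 UMIs, and the ratio of TMM-scaled sums was 21.1 with an exact 95% counting interval of 6.88 to 105 (35.5 without TMM scaling, 11.6 to 177). Both genes, as well as Col7a1 and Col16a1, also rose in epithelial-like cells, described below, which held 63.2%, 82.8%, 57.3% and 56.8% of the UMIs of Col11a1, Col9a3, Col7a1 and Col16a1. Cells with T antigen were present in the Tumor fibroblast-like class at the shares given above. The fit without them kept 175 and 158 Tumor cells, and no statement is made here on their part in these rises.

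The major fibrillar chains did not pass in this fit although every Tumor mean was the highest. Col1a1 was at 787, 148, 1402, 394, 5672 and 734 CPM, and its 2.78 ± 1.13 difference from Prepuberty to Tumor had an adjusted p of 0.169. Col1a2 was at 1350, 226, 2153, 689, 5156 and 1214 CPM (adjusted p = 0.242) and Col3a1 at 1754, 328, 1827, 685, 5597 and 1919 (adjusted p = 0.224). Tumor 2 lay within the range of the earlier states for Col1a1 and Col1a2, while both Tumor libraries of Col3a1 were above the other 4, and in each state the library numbered 2 was the lower one for all 3 genes.

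Without integration, the 175 and 40 Tumor fibroblast-like cells had more fibrillar collagen. Col1a1 was then at 9398 and 4122 CPM in Tumor, Col1a2 at 8528 and 5592 and Col3a1 at 9286 and 12408. Tumor was above Prepuberty by 3.93 ± 0.93 for Col1a1 (adjusted p = 0.058) and by 3.45 ± 0.82 for Col3a1 (adjusted p = 0.0576), neither of which passed, although both Tumor libraries were above the Prepuberty libraries. From Prepuberty to Tumor 7 of 29 collagens rose and 0 fell (3.6% of all genes were called, 2.46% as higher), namely Col5a1, Col8a1, Col8a2, Col9a3, Col12a1, Col14a1 and Col16a1. From DCIS to Tumor 2 rose and 0 fell (3.83% of all genes), namely Col5a1 and Col14a1.

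Col5a1, the chain that starts type I fibers, was at 709 and 543 CPM in these Tumor cells and rose by 3.46 ± 0.64 from DCIS (adjusted p = 0.0314) and by 3.68 ± 0.65 from Prepuberty (adjusted p = 0.025). In the integrated classes it was at 78.0, 24.9, 77.0, 39.3, 442 and 108 CPM and did not pass (adjusted p = 0.0916 and 0.101). Col14a1, a FACIT chain that limits fiber growth, was at 414 and 988 CPM without integration, up by 4.52 ± 0.81 from Prepuberty (adjusted p = 0.0261), and at 251 and 56.4 CPM with it. Col8a1, Col8a2, Col12a1, Col16a1 and Col9a3 rose from Prepuberty in both clusterings, whereas Col11a1 and Col7a1 missed the threshold without integration (adjusted p = 0.0514 and 0.0752).

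Of the 4 basement membrane collagens tested in the integrated fibroblast-like class, 1 fell in each Tumor comparison. Col4a1 was at 363, 149, 305, 339, 60.2 and 38.7 CPM, with both Tumor libraries below the other 4, and fell by 2.71 ± 0.50 from DCIS (adjusted p = 0.017) and by 2.38 ± 0.49 from Prepuberty (adjusted p = 0.0283). Col4a2 was at 343, 113, 241, 222, 73.2 and 47.4 CPM (adjusted p = 0.0522 against DCIS), and Col18a1 at 174, 51.6, 129, 127, 45.8 and 22.2 (adjusted p = 0.0711). Without integration Col4a1 was at 93.4 and 240 CPM in Tumor and did not pass (adjusted p = 0.355 against DCIS). Both libraries were then below those of DCIS (297 and 328) but overlapped those of Prepuberty (347 and 143), and against Prepuberty the change was −0.58 (adjusted p = 0.589). The fibroblast-like clusters rich in T antigen, 3 of 5 and among them the one led by Col1a1, were also dropped from all states. That left another subset of cells, with 443 and 460 in Prepuberty and only 30 and 17 in Tumor. There the change from Prepuberty to Tumor turned to 0.069 (adjusted p = 0.969). Without T-antigen cells, with all clusters kept, the change was −1.98 (adjusted p = 0.051). Without integration 76 of the 253 Tumor 1 cells of that class fell into an epithelial-like cluster, and 208 of the 289 Tumor 2 cells into an unnamed cluster led by Shox2 and Col11a1 in which Krt14, a keratin of basal epithelium, was also among the leading genes.

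In fibroblast-like cells, libraries with the same number deviated together between states. No label pairs them, so that the pairing was taken from these same data and its fit is no independent support. With that number as a block there were more calls, at 1 higher from Prepuberty to DCIS (Col12a1, adjusted p = 0.0473), 7 higher and 4 lower from DCIS to Tumor, and 14 higher and 2 lower from Prepuberty to Tumor of 29. Those shares stand beside 0.107%, 18.7% and 12.3% of all genes. The block added Col1a1, Col1a2, Col3a1, Col5a1, Col5a2, Col14a1 and Col27a1 to the genes that rose from Prepuberty to Tumor, and Col4a2 to those that fell. Without the block, leaving out Prepuberty 1 or Prepuberty 2 left 0 calls from Prepuberty to Tumor, leaving out Tumor 1 left 3 higher and 1 lower, and leaving out Tumor 2 left 4 higher. From DCIS to Tumor 0 remained without DCIS 1, DCIS 2 or Tumor 2.

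**Figure D2:**
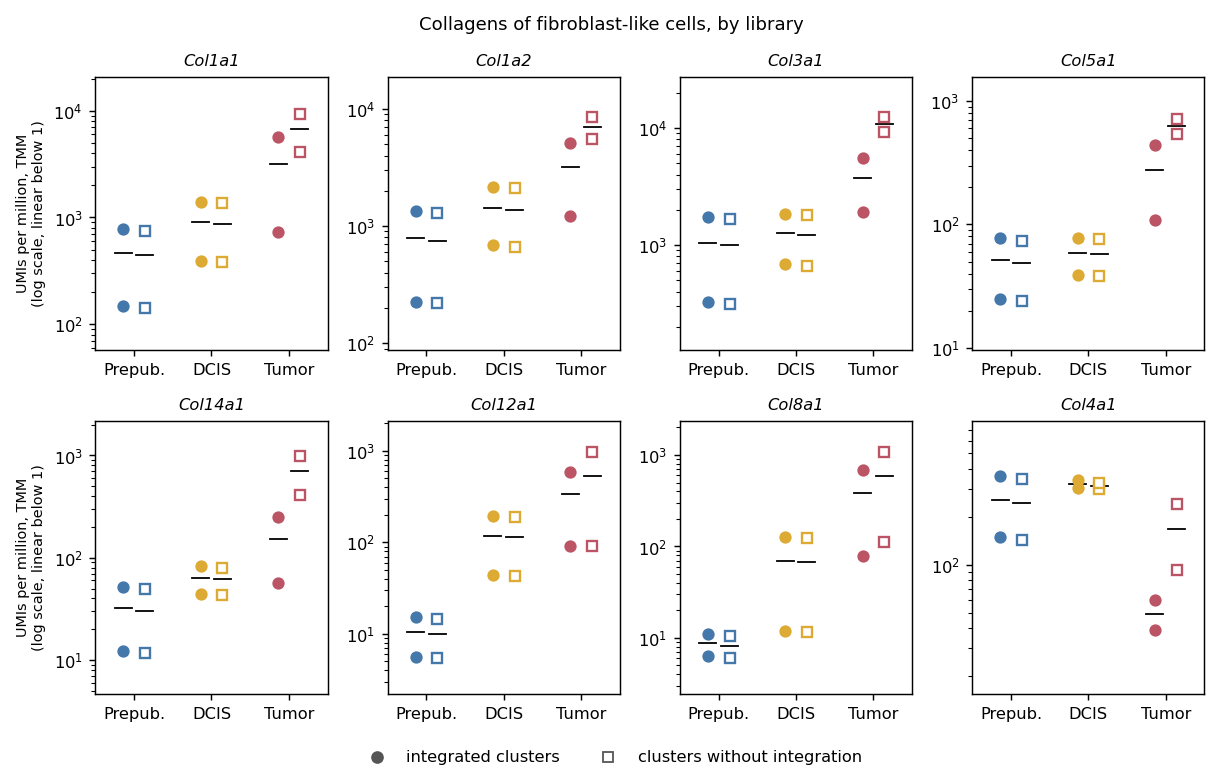
Level of 8 collagens in the fibroblast-like cells of each library (CPM of the class, TMM-scaled, log axis that is linear below 1) by disease state. Filled circles are the integrated clusters with a black line at the mean of the 2 libraries, open squares the clusters without integration, and Col5a1 and Col14a1 show the wide gap between both in Tumor, while Col4a1 is lowest in the Tumor circles at 60.2 and 38.7.

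As a share of all UMIs in fibroblast-like cells, the 44 collagens took 0.584% and 0.142% in Prepuberty, 0.666% and 0.287% in DCIS and 2.40% and 0.853% in Tumor. Without integration the Tumor shares were 3.77% and 3.78%, and in the integrated class without T-antigen cells they were 3.16% and 1.07%. Within the integrated cluster led by Col1a1, Crabp1, Col1a2, Mfap4 and Cthrc1, which held 60.9% and 58.5% of the Tumor fibroblast-like cells against 9.51% to 30.3% in the other libraries, the shares were 0.984%, 0.438%, 1.38%, 0.804%, 3.26% and 1.17%. Of the Tumor cells in that cluster, 24.7% and 52.7% held a T antigen UMI, against at most 0.513% in the other libraries. Over all kept cells there was no such order: collagens took 0.334%, 0.128%, 0.156%, 0.108%, 0.186% and 0.168%, with Tumor libraries holding fewer fibroblast-like cells.

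**Figure D3:**
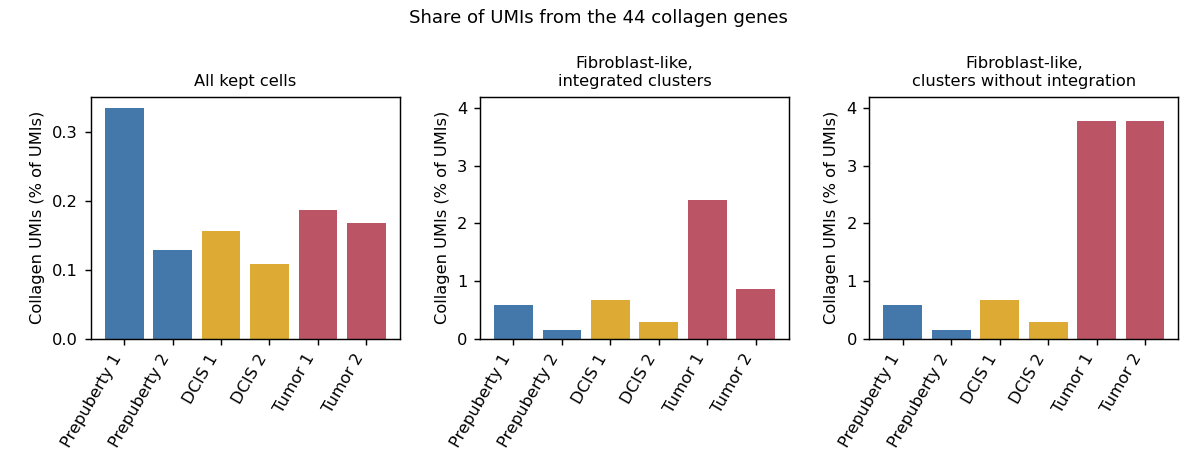
Percent of UMIs from the 44 collagen genes in each of the 6 libraries, as bars from 0 for all kept cells, for fibroblast-like cells of the integrated clusters and for those of the clusters without integration. The Tumor bars are highest among fibroblast-like cells (2.40% and 0.853%, or 3.77% and 3.78% without integration), while all kept cells lie between 0.108% and 0.334%.

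Of 29 genes that make and cross-link collagen, 26 were tested in fibroblast-like cells, and 1 rose from Prepuberty to Tumor (9.36% of all genes called), with 0 from Prepuberty to DCIS (0%) and from DCIS to Tumor (14%). It was Lox, the lysyl oxidase that starts cross-links between collagen chains, at 39.0, 18.8, 103, 80.6, 337 and 174 CPM and up by 3.14 ± 0.51 (adjusted p = 0.0141). Without integration Lox rose by 4.11 (adjusted p = 0.0148) and Adamts2, which trims the end of procollagen, by 2.14 (adjusted p = 0.036) from Prepuberty to Tumor (3.6% of all genes called), and Lox and Loxl1, another lysyl oxidase, by 2.43 and 2.04 from DCIS to Tumor (adjusted p = 0.0354 and 0.0364; 3.83%). With the block, Lox rose from DCIS to Tumor (adjusted p = 0.0274) and Lox and Loxl3 from Prepuberty to Tumor (adjusted p = 0.00266 and 0.0434), beside 18.7% and 12.3% of all genes. The median change of the 26 genes was −0.02 from DCIS to Tumor and 0.45 from Prepuberty to Tumor, beside 0.13 and 0.02 over all genes, and 0.87 and 0.82 without integration, beside 0.03 and −0.06.

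Among 14 genes for collagen receptors and breakdown, 12 were tested, and 1 fell from DCIS to Tumor and from Prepuberty to Tumor (14% and 9.36% of all genes called). Ddr2, a receptor tyrosine kinase for fibrillar collagen, was at 121, 100, 117, 164, 32.5 and 28.5 CPM and fell by 1.86 ± 0.34 from Prepuberty to Tumor (adjusted p = 0.0195) and by 2.2 ± 0.34 from DCIS (adjusted p = 0.0111). Without integration Ddr2 was not called, and Fap, a protease of reactive fibroblasts, and Itga11, an integrin chain for collagen, rose from Prepuberty to Tumor by 3.34 and 3.25 (adjusted p = 0.0442 and 0.034). With the block 6 of the 12 rose and 1 fell from Prepuberty to Tumor (12.3% of all genes), the 6 being Mrc2, Fap, Itga1, Itga11, Mmp13 and Itgb1 (adjusted p = 0.006 to 0.0458). Mmp13 rests on the Tumor cells that integration placed in the class: Tumor 2 was at 292 CPM (2211 UMIs) with integration and at 2.38 (1 UMI) without, and its change ranged from −8.97 to 4.28 over the alternatives. With the block, 1 rose and 3 fell from DCIS to Tumor (18.7%). The median change of the 12 genes from Prepuberty to Tumor was 1.02, beside 0.02 over all genes.

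Endothelial-like cells had more type IV and multiplexin collagen in Tumor. From Prepuberty to Tumor 6 of 18 collagens rose and 0 fell (11.9% of all genes were called, 7.05% as higher), and from DCIS to Tumor 5 rose and 0 fell (13.6%, 7.01% as higher). Tumor gave 76 and 34 such cells, of which 0 to 3.9% held a T antigen UMI in any library, and the endothelial markers summed to 3754 to 5349 CPM in all 6. The 8 fibroblast markers in these cells summed to 149 and 131 CPM in Prepuberty, 37 and 46.8 in DCIS and 37 and 284 in Tumor, with 5 of the 8 at 0 in Tumor 2. The 9 pericyte or smooth muscle markers, of the class that came second for Col4a1 and Col4a2, summed to 666 and 937 CPM in Prepuberty, 156 and 365 in DCIS and 612 and 554 in Tumor, so that they were higher in Tumor than in DCIS, but not than in Prepuberty. The part of either set in the differences was not tested.

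Col4a1 was at 613, 490, 477, 577, 1557 and 1937 CPM in endothelial-like cells, with both Tumor libraries above the other 4, and rose by 1.73 ± 0.31 from DCIS (adjusted p = 0.0104) and by 1.66 ± 0.31 from Prepuberty (adjusted p = 0.0112). Col4a2, its partner chain, was at 655, 480, 493, 487, 1801 and 1807 CPM and rose by 1.88 ± 0.30 and 1.67 ± 0.30 (adjusted p = 0.0071 and 0.0105). For both genes the ranges of Prepuberty and DCIS overlapped.

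Col18a1 was at 90.9, 51.8, 157, 91.1, 517 and 606 CPM and rose by 2.18 ± 0.38 from DCIS (adjusted p = 0.0102) and by 2.98 ± 0.39 from Prepuberty (adjusted p = 0.00309). Col13a1 was at 7.08, 3.82, 42.5, 71.9, 87.3 and 237 CPM, in order of disease state with no overlap, up by 4.85 ± 0.56 from Prepuberty to Tumor (adjusted p = 0.00188) and by 3.41 ± 0.52 from Prepuberty to DCIS, which did not pass (adjusted p = 0.136). Col15a1, at 92.3, 54.9, 240, 138, 265 and 158 CPM, rose by 1.54 ± 0.40 from Prepuberty to Tumor (adjusted p = 0.0396), and its DCIS and Tumor libraries overlapped.

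Col27a1 and Col6a1 completed the calls and were at low levels in DCIS. Col27a1, a fibrillar chain, was at 3.01, 3.94, 0.886, 0.786, 27.4 and 6.06 CPM, and Tumor 2 held 2 UMIs of it. In the fit without integration and with an unnamed cluster added, described below, it rose by 4.24 ± 0.73 from DCIS to Tumor (adjusted p = 0.00834), with 5 UMIs in DCIS. Col6a1 was at 33.4, 65.6, 1.77, 5.89, 35.2 and 12.1 CPM, lowest in DCIS, and rose by 2.75 ± 0.70 from DCIS to Tumor (adjusted p = 0.0354).

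From Prepuberty to DCIS 0 of 18 collagens were called by edgeR in endothelial-like cells (0% of all genes), with 12 at an unadjusted p under 0.05 and 3 by DESeq2, each without an all-gene share. Without integration 66 and 16 of the Tumor endothelial-like cells fell into an unnamed cluster led by Igfbp3, Esm1 and Kdr, a receptor of vascular endothelial growth factor, 10 and 17 Tumor cells stayed endothelial-like, and 2 collagens were called from Prepuberty to DCIS and 0 by edgeR in either Tumor comparison, with 1 in each at an unadjusted p under 0.05 (0.0598%, 0.628% and 0.578% of all genes from Prepuberty to DCIS, DCIS to Tumor and Prepuberty to Tumor). Adding that cluster back, which was chosen after its genes were seen, gave 76 and 33 Tumor cells, nearly the same cells as in the integrated class, so that it is no independent check of the calls. There 4 rose from DCIS to Tumor (14.4% of all genes) and 6 from Prepuberty to Tumor (12.9%). Col4a1 then rose by 1.83 (adjusted p = 0.00837), Col4a2 by 1.82 (adjusted p = 0.00635) and Col18a1 by 3.13 (adjusted p = 0.0023) from Prepuberty to Tumor, whereas Col6a1 lost its call from DCIS to Tumor (adjusted p = 0.0937). Leaving out DCIS 1 or DCIS 2 left 1 call from DCIS to Tumor, and leaving out Prepuberty 2 left 2 from Prepuberty to Tumor. The share of endothelial-like cells in the cluster led by Gpihbp1, a gene of capillaries, was 82.9% and 85.3% in Tumor, against 39.0% to 68.9% in the other libraries, and its part in these differences was not tested.

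**Figure D4:**
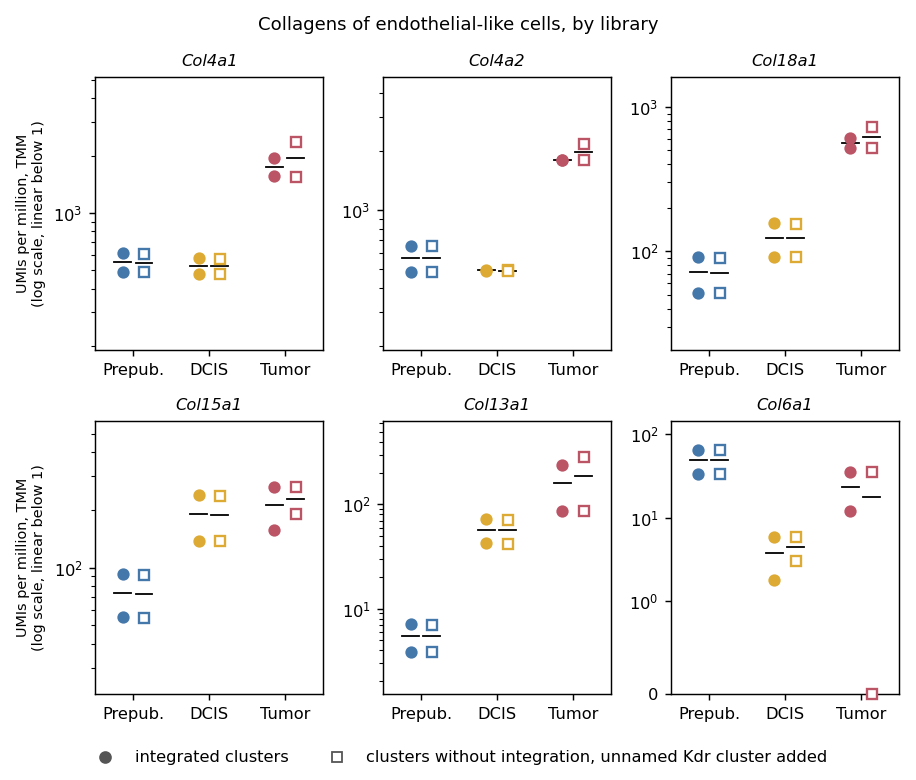
Level of 6 collagens in the endothelial-like cells of each library (CPM of the class, TMM-scaled, log axis that is linear below 1) by disease state. Filled circles are the integrated clusters with a black line at the mean of the 2 libraries, and open squares the clusters without integration with the unnamed Kdr cluster added, which hold nearly the same Tumor cells (76 and 33, against 76 and 34); Col4a1, Col4a2 and Col18a1 are higher in both Tumor libraries (1557 and 1937 for Col4a1) than in the other 4.

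The epithelial-like cells, which hold most cells with T antigen (72.5% and 56.3% of them in Tumor, 2.8% to 28.1% in the other libraries), had rises in chains of types IX and XI, which are best known from cartilage. From Prepuberty to Tumor 6 of 30 collagens rose and 1 fell (7.09% of all genes were called, 3.48% as higher and 3.61% as lower), and from DCIS to Tumor 4 rose and 0 fell (2.09%, 0.682% as higher). The 8 fibroblast markers in these cells summed to 49.4 to 137 CPM in Prepuberty and DCIS and to 14.1 and 27.1 in Tumor. The 8 myoepithelial markers summed to 344 and 892 CPM in Prepuberty, 1110 and 637 in DCIS and 1448 and 2532 in Tumor, higher in Tumor along with chains that were highest in myoepithelial-like cells, and their part in the differences was not tested. From Prepuberty to DCIS 0 of 30 were called by edgeR (0% of all genes). At an unadjusted p under 0.05 there were 7, and DESeq2 called 2, each without an all-gene share.

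Col11a1 was at 1.41, 1.83, 2.63, 1.37, 43.1 and 71.1 CPM in epithelial-like cells and rose by 4.83 ± 0.47 from DCIS (adjusted p = 0.0168) and by 5.22 ± 0.52 from Prepuberty (adjusted p = 0.0194). Both Tumor libraries were far above the other 4. Col9a3 was at 6.80, 5.5, 21.3, 8.21, 95.9 and 78.5 CPM, with a rise of 2.56 ± 0.46 from DCIS (adjusted p = 0.0437) and 3.79 ± 0.51 from Prepuberty (adjusted p = 0.0194).

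The other type IX chains were each called in 1 comparison only, Col9a2 against Prepuberty and Col9a1 against DCIS. Col9a2 was at 2.57, 0.458, 8.02, 7.20, 23.6 and 13.1 CPM and rose by 3.26 ± 0.61 from Prepuberty (adjusted p = 0.0298). Col9a1 was at 2.07, 0.458, 0.789, 0.504, 5.62 and 13.4 CPM, up by 3.86 ± 0.75 from DCIS (adjusted p = 0.0496).

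Other epithelial-like rises were in matrix-facing and transmembrane chains. Col16a1 was at 7.05, 12.8, 21.2, 9.65, 43.6 and 49.5 CPM (2.30 ± 0.48 from Prepuberty, adjusted p = 0.0351). Col7a1 was at 0.415, 0, 2.89, 1.15, 6.63 and 14.2 CPM (4.98 ± 0.92, adjusted p = 0.0289). Col25a1 had no UMI in either Prepuberty library and was at 1.38, 0.792, 3.76 and 3.93 CPM in the others, at least 18.2-fold higher in Tumor on TMM-scaled sums when Prepuberty is set to 3 UMIs over the group (adjusted p = 0.0265).

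Col5a3, a type V chain, was at 6.22, 1.83, 1.32, 0.504, 10.3 and 15.1 CPM and rose by 3.78 ± 0.70 from DCIS to Tumor (adjusted p = 0.0453). Col4a1 was the one collagen that fell, from 16.4 and 24.3 CPM in Prepuberty to 5.46 and 5.69 in Tumor (a log2 change of −1.85 ± 0.37, adjusted p = 0.0336, or 0.062 without TMM scaling). The Prepuberty epithelium differed in make-up as well, with 42% and 51.4% of its cells in a cluster led by Prlr and Cited1 against 0.582% and 3.22% in Tumor, and Prepuberty 2 gave only 109 cells.

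Without integration 5 epithelial-like collagens rose from DCIS to Tumor (3.81% of all genes), with Col5a1 added (adjusted p = 0.0433), and 6 rose and 1 fell from Prepuberty to Tumor (9.51%). The 8 fibroblast markers summed to 15.7 and 211 CPM in these Tumor cells and to 45.7 to 137 CPM in the other libraries, and their part in the Col5a1 call was not tested. When cells with a T antigen UMI were left out, Col5a3, Col9a1 and Col9a3 lost their calls from DCIS to Tumor (adjusted p = 0.077, 0.056 and 0.053). Leaving out either DCIS library left 0 calls from DCIS to Tumor, and leaving out either Prepuberty library left 0 from Prepuberty to Tumor.

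**Figure D5:**
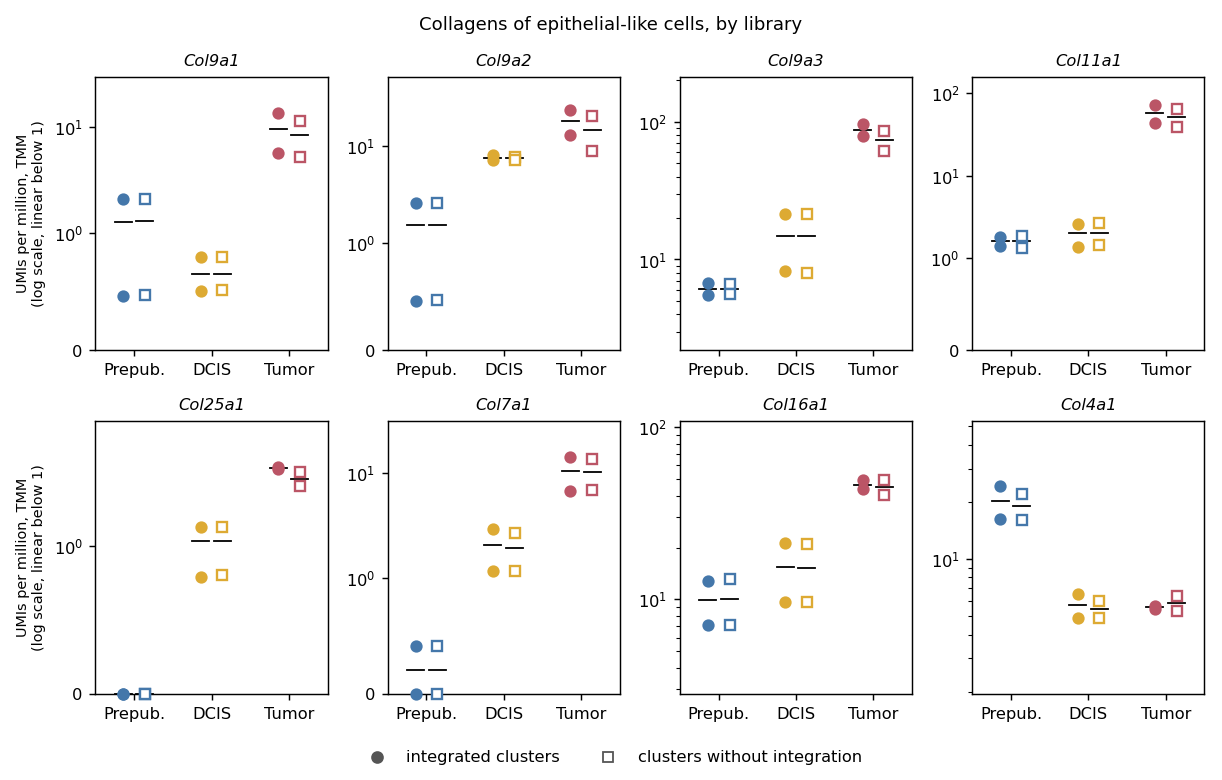
Level of 8 collagens in the epithelial-like cells of each library (CPM of the class, TMM-scaled, log axis that is linear below 1) by disease state. Filled circles are the integrated clusters with a black line at the mean of the 2 libraries and open squares the clusters without integration; Col11a1 stays at 1.37 to 2.63 until DCIS and reaches 43.1 and 71.1 in Tumor, and Col4a1 is lower in Tumor than in Prepuberty.

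In the myoepithelial-like class, whose 64 Tumor cells held epithelial markers at 5687 and 2544 CPM and myoepithelial markers at 3253 and 5076 CPM against 6959 to 14974 in the other libraries, 2 of 15 collagens rose and 3 fell from DCIS to Tumor (20.5% of all genes) and 1 rose and 3 fell from Prepuberty to Tumor (7.37%). Col4a1 was at 337, 142, 121, 201, 2.86 and 3.53 CPM, the last pair from 3 UMIs, and fell from DCIS (adjusted p = 0.00189) and from Prepuberty (adjusted p = 0.00268), with a ratio of DCIS to Tumor of 56.1 on TMM-scaled sums and an exact 95% counting interval of 19.1 to 273. Col4a2 was at 360, 163, 211, 228, 11.5 and 10.6 CPM and fell by 4.31 from DCIS and by 4.56 from Prepuberty (adjusted p = 0.00178 and 0.00268). Col14a1 was at 75.7, 22.6, 70.5 and 37.5 CPM before Tumor, which held 2 UMIs, and fell from DCIS (adjusted p = 0.0112), with a ratio of DCIS to Tumor of 20.4 (5.57 to 169).

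Col1a2 was at 20.8, 2.38, 7.05, 3.26, 94.5 and 88.2 CPM in that class and rose from DCIS to Tumor (4.32 ± 0.71, adjusted p = 0.00453), and Col11a1 was at 43.5, 5.96, 4.03, 1.63, 51.5 and 333 CPM and rose by 6.34 ± 1.12 (adjusted p = 0.00595). Since these Tumor cells were not myoepithelial-like without integration, no such comparison could be made there. From Prepuberty to DCIS 0 of 15 were called by edgeR (0% of all genes), with 2 at an unadjusted p under 0.05 and 0 by DESeq2.

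In macrophage-like cells 4 were tested and Col14a1 was the 1 call, from Prepuberty to Tumor, beside 6.01% of all genes, with 0 collagens called by edgeR from Prepuberty to DCIS (0.146% of all genes) and from DCIS to Tumor (6.45%), 0 by DESeq2, and 1 and 0 at an unadjusted p under 0.05. It was at 2.76, 0, 27.7, 7.93, 17.8 and 93.4 CPM, with 1 UMI in Prepuberty and a ratio of TMM-scaled sums of 44.5 (exact 95% counting interval 7.90 to 1763). In these cells the 8 fibroblast markers summed to 106 and 61.7 CPM in Prepuberty, 35 and 49.9 in DCIS and 15.4 and 15.8 in Tumor, while 5 neutrophil markers summed to 151 and 291, 316 and 41.7, and 934 and 5175, highest in Tumor 2 like Col14a1. Without integration the neutrophil markers were at 26.7 and 121 CPM in Tumor and at 57.1 and 291 in Prepuberty, and Col14a1 rose by 5.46 (adjusted p = 0.0466). Pericyte- or smooth-muscle-like cells (16 tested) and Schwann-like cells (11 tested) had enough libraries only for Prepuberty against DCIS, where edgeR and DESeq2 each called 0 collagens beside 0.393% and 0.291% of all genes. At an unadjusted p under 0.05 there were 1 and 5.

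The source of the type IV and XVIII chains shifted between states with these changes and with the cell numbers. Fibroblast-like cells gave 51.4%, 49.7% and 15.5% of the Col4a1 UMIs in Prepuberty, DCIS and Tumor, and endothelial-like cells 39.2%, 32.4% and 56.2%. For Col18a1 the fibroblast-like share was 72.1%, 55.9% and 6.68%, and the epithelial-like share 1.83%, 8.78% and 62.3%. Of the Col9a3 UMIs, 30.9%, 52.4% and 87.8% were in epithelial-like cells.

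Summed over all cells of a library, where fewer cells of a type and less RNA per cell cannot be told apart, 11 of 39 collagens rose and 3 fell from Prepuberty to Tumor (12.5% of all genes, 4.88% as higher and 7.59% as lower), and 3 rose and 2 fell from DCIS to Tumor (4.53%). From Prepuberty to DCIS 0 were called by edgeR (0% of all genes), with 13 at an unadjusted p under 0.05 and 6 by DESeq2, each without an all-gene share. Col9a3 rose by 4.03 ± 0.35 from Prepuberty to Tumor (adjusted p = 0.0043). Col4a1 was at 289, 226, 107, 169, 31.7 and 24.9 CPM, in order of disease state without overlap, and fell by 3.19 ± 0.36 (adjusted p = 0.00795), while its level within endothelial-like cells rose.

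The change between states differed between classes for several collagens, by the interaction of class and state in a fit with the library as a block. From DCIS to Tumor 5 of 28 collagens had a lower signed log2 change in fibroblast-like than in endothelial-like cells (2.95% of all genes were called). Col4a1 differed by −4.46 ± 0.41 and Col18a1 by −4.22 ± 0.48 (adjusted p = 0.001 and 0.002), the changes being −2.71 and 1.73 for Col4a1 and −1.92 and 2.18 for Col18a1. Without integration, where 0.325% of all genes were called, Col18a1 differed by −2.97 (adjusted p = 0.046) and Col4a1 by −1.40, which did not pass (adjusted p = 0.342). From Prepuberty to Tumor 7 collagens differed between these classes (4.7% of all genes, and 0.559% without integration). In 4 of them, Col4a1, Col4a2, Col13a1 and Col18a1, the change was negative in fibroblast-like and positive in endothelial-like cells. Without the clusters rich in T antigen, which left 30 and 17 Tumor cells, the fibroblast-like change of Col4a1, Col4a2 and Col18a1 turned to 0.069, 0.49 and 1.03. From Prepuberty to Tumor the signed change of Col3a1 was higher in fibroblast-like than in epithelial-like cells by 3.51 ± 0.42 (adjusted p = 0.003, and 0.013 without integration), where 10.8% of all genes were called (10.9% without integration), and from DCIS to Tumor 4 collagens differed between these classes (7.95%, and 3.27% without integration). From Prepuberty to DCIS 0 collagens differed from endothelial-like cells (0% of all genes) or epithelial-like cells (0.0069%) by edgeR. At an unadjusted p under 0.05 there were 11 and 10, without an all-gene share. DESeq2 called 3 and 4, beside 60 of 12753 and 273 of 14500 genes. From pericyte- or smooth-muscle-like cells 4 collagens differed by edgeR (0.769%), but 0 by DESeq2 and 0 without integration.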

How the data were processed

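The authors counted UMIs per gene and cell with Cell Ranger (version 3.0.2 per the file headers) on mm10. These deposited counts are raw and filtered to cells. The reference annotation was not given in the sources used here, and 44 of 44 collagen identifiers matched GENCODE vM21. Per the labels, digestion and kit version did not differ between libraries, but the published methods give tumors their own dissociation and Tumor 2 a later kit.

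Cells needed at least 200 genes and a mitochondrial share under 10%. Scrublet scores (scanpy 1.11.5) removed 0.8% doublets per 1000 cells, or 2.19% to 3.71% of a library. Its automatic threshold marked only 64 cells (0.281%) and was not used. Libraries were integrated and clustered in Seurat 5.3.0 (2000 variable genes without collagens, 20 dimensions, resolution 0.8). A class name needed 3 markers in 25% of a cluster's cells at 2-fold.

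Class sums, with at least 10 cells per library, were tested with edgeR 4.0.16 (R 4.3.3, filterByExpr, TMM, adjusted p under 0.05), with DESeq2 1.42.0, other filters, thinning, scalings, clusterings and left-out libraries as alternatives. The test was checked on simulated counts. Intervals cover counting error only. Library numbers were taken to pair fibroblast-like sums, since same-numbered libraries deviated together in each pair of states (r = 0.31, 0.11 and 0.17, from the data and not from the labels). Endothelial-like sums also had a positive r in each pair (0.35, 0.038 and 0.034), so this rule does not set fibroblast-like cells apart. The block was used in the text for fibroblast-like cells only. Collagens, making and receptor lists (29 and 14 genes) were chosen with earlier results of these data known. Collagens with at least 100 UMIs were described by class, and those edgeR called were given per library. The lists' called genes were named. Motif windows came from RefSeq.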

Additional observations from a re-analysis of the deposited data

Results flagged for a closer look

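For 27 differences between classes the change from one state to another differed by edgeR's interaction test of class and state (adjusted p under 0.05 over all genes, Benjamini-Hochberg). Each value is the log2 change in fibroblast-like cells minus that in the other class, so a negative value means a lower signed change in fibroblast-like cells.

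Against endothelial-like cells from DCIS to Tumor the differences were −4.46 for Col4a1, −3.85 for Col4a2, −4.22 for Col18a1, −5.85 for Col13a1 and −3.97 for Col27a1, and from Prepuberty to Tumor −3.88 for Col4a1, −3.37 for Col4a2, −4.54 for Col18a1, −6.68 for Col13a1, 7.23 for Col12a1, 5.83 for Col8a1 and 2.04 for Col1a2. Without integration, Col18a1 in both comparisons and Col8a1 and Col1a2 from Prepuberty to Tumor kept an adjusted p under 0.05, with 10 and 17 Tumor endothelial-like cells.

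Against epithelial-like cells the differences from DCIS to Tumor were −3.62 for Col5a3, −2.81 for Col4a2, −2.83 for Col4a1 and −4.12 for Col18a1, and from Prepuberty to Tumor 3.51 for Col3a1, 2.44 for Col1a1, 3.04 for Col5a2, 5.08 for Col12a1, −1.58 for Col5a3, 2.64 for Col6a3 and −3.38 for Col18a1. Without integration Col5a3 from DCIS to Tumor, Col18a1 in both comparisons, and Col3a1, Col12a1 and Col6a3 from Prepuberty to Tumor kept an adjusted p under 0.05.

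Against pericyte- or smooth-muscle-like cells from Prepuberty to DCIS the differences were 2.82 for Col1a1, 3.20 for Col12a1, 1.76 for Col1a2 and 1.51 for Col6a1, where 0.769% of all genes were called, and 0 of these 4 kept the call without integration.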

How the results depend on the processing

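Each state holds 2 libraries, and Tumor gave 253 and 289 fibroblast-like and 76 and 34 endothelial-like cells, so that a left-out library often ended a call. Over single genes called in the text's comparisons 821 alternative values kept direction and side of the threshold, 247 missed the threshold and 2 changed sign; over the interactions these numbers were 225, 67 and 1. Of these called results, those that changed sign were Col4a1 in fibroblast-like cells from Prepuberty to Tumor, at 0.17 without integration and without Prepuberty replicate 1 (adjusted p = 0.908) and at 0.069 without the clusters rich in T antigen (adjusted p = 0.969), and the Col27a1 interaction with endothelial-like cells from DCIS to Tumor, at 6.36 without integration (adjusted p = 0.886); the cause was not tested. Below, DP, TD and TP stand for Prepuberty to DCIS, DCIS to Tumor and Prepuberty to Tumor, and numbers are collagens called, where they differed by over 1.5 times.

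With DESeq2 the fibroblast-like counts were 1 (DP) and 6 (TD), without integration 1, 7 and 19, endothelial-like 3 (DP), epithelial-like 2, 11 and 12, all cells 6 (DP) and 9 (TD), and the interactions 3 (endothelial-like DP), 4 (epithelial-like DP) and 0 (pericyte- or smooth-muscle-like). Without integration they were 2, 0 and 0 in endothelial-like cells, and for interactions 6, 1 and 4 against endothelial-like, 2 (TD) and 4 (TP) against epithelial-like and 0 against pericyte- or smooth-muscle-like cells. With collagens among the variable genes they were 1 (epithelial-like TD), 11 and 7 (myoepithelial-like TD and TP). With thinned counts they were 4 (fibroblast-like TD), 3 (endothelial-like TD), 2 and 4 (epithelial-like TD and TP). The matrix cluster alone gave 0 (fibroblast-like TP).

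Without TMM they were 5 (fibroblast-like TD), 6 and 15 (its TD and TP without integration) and 11 (endothelial-like TD). That scaling moves the median of all genes from DCIS to Tumor to 0.84 in fibroblast-like and 0.33 in endothelial-like cells. Without the filter on low counts they were 8, 20 and 21 in fibroblast-like, 11, 12 and 10 in endothelial-like, 8, 15 and 19 in epithelial-like, 1, 11 and 10 in myoepithelial-like, 2, 1 and 3 in macrophage-like, 1 in Schwann-like (DP), 2 (DP) and 8 (TD) in all cells, 12, 10 and 14 for the endothelial-like and 10, 10 and 12 for the epithelial-like interaction. With only the 4 libraries compared they were 6 (fibroblast-like TD), 0 (epithelial-like TD), 3 and 9 (all cells TD and TP).

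With the replicate block they were 1, 11 and 16 in fibroblast-like cells and 1, 7 and 16 there without integration, and, where numbers were not taken to pair libraries (r of −0.06 to 0.35), 5 (DP) and 8 (TD) in endothelial-like, 1 (DP) in pericyte- or smooth-muscle-like, 2 (TD) in epithelial-like and 2 (TD) in all cells. Without T-antigen cells they were 1 (epithelial-like TD), 1 (all cells TD) and 4 (epithelial-like interaction TP), and without fibroblast-like clusters rich in T antigen 9 (fibroblast-like TD).

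Leaving out 1 library gave 0 to 2 (TD) and 0 to 4 (TP) in fibroblast-like cells, 0 to 0 and 0 to 4 there without integration, 0 to 1, 1 to 8 and 2 to 6 in endothelial-like, 0 to 8 and 0 to 12 in epithelial-like, 4 to 7 and 3 to 6 in myoepithelial-like, 0 to 1 and 0 to 1 in macrophage-like (TD and TP), 0 to 3 in Schwann-like (DP), 0 to 5 and 4 to 12 in all cells, and for the interactions 0 to 12, 4 to 8 and 6 to 15 against endothelial-like, 0 to 8, 1 to 11 and 2 to 11 against epithelial-like and 0 to 7 against pericyte- or smooth-muscle-like cells. Without Tumor 1 the all-cell DCIS to Tumor count was 5 and without Tumor 2 it was 1, and the macrophage-like Col14a1 call was lost without either Prepuberty library or Tumor 2.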
